A study of Mus musculus with 4 samples.

Results

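Imprinted genes are transcribed mainly from the copy inherited from one parent, and 10 mouse genes with imprinting in all or some tissues (Gnas, H13, Impact, Igf2r, Commd1, Trappc9, Snrpn, Zrsr1, Mcts2 and Plagl1) were looked up by symbol in RNA sequencing counts of peritoneal macrophages. Of these 10 genes, 9 were among the 13834 rows of the table, and Snrpn was not. The table lists only genes with a value above 0 in all 4 libraries, so the missing row does not show that Snrpn was silent.

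The libraries came from 2 Dnmt1fl/fl samples, which the labels call wild type, and 2 Dnmt1KO samples, a myeloid-specific knockout of Dnmt1. All of these mice carry floxed Dnmt1 alleles, and the Dnmt1KO mice also express Cre recombinase from the LysM promoter, which is active in myeloid cells. The study's methods describe 10-week-old mice that were injected with thioglycolate broth 3 days before the peritoneal cavity was washed. No source says whether a sample was 1 mouse or a pool, so the p-values measure only the spread between these samples.

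Most imprinted loci have a stretch of DNA, the imprinting control region, that is methylated on one parental copy in the germ cells. DNMT1 copies methylation to the new DNA strand at every cell division, and the proteins ZFP57 and ZFP445 with TRIM28 protect these regions when the rest of the genome is stripped of methylation in the early embryo. At the loci of the genes studied here the maternal copy carries the mark. Plagl1, Impact, Snrpn and the retrogenes Zrsr1 and Mcts2 are transcribed from the paternal copy, Igf2r from the maternal copy, and Gnas, H13, Commd1 and Trappc9 favour the maternal copy in some tissues, mainly brain or endocrine organs. The counts sum both copies and carry no allele information, so they show the level of each gene and not its imprint. In bulk RNA, fewer cells of a type and less RNA per cell cannot be told apart.

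Positions are from GENCODE M21 on GRCm38, the assembly also called mm10. Gnas lies on chromosome 2 from 174284320 to 174346744. H13 is on the same chromosome from 152669461 to 152708670, and the single-exon Mcts2 lies inside it on the same strand, from 152687035 to 152687946. Commd1 spans 22896136 to 22982382 on chromosome 11, and the single-exon Zrsr1 lies inside it on the opposite strand, from 22972005 to 22976496. Trappc9 spans 72589620 to 73061204 on chromosome 15 and contains the noncoding RNA gene Peg13. Igf2r is at 12682406 to 12769664 on chromosome 17 and is overlapped on the other strand by the noncoding RNA gene Airn. Plagl1 is at 13060504 to 13131694 on chromosome 10.

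Cytosines that are followed by guanine (CpG) are the bases that DNMT1 methylates. The stretches just upstream of the start sites of both nested genes and their hosts are shown because these pairs are compared below, with each CpG in capitals and bases inside annotated exons left out. They are RefSeq promoter sequences on GRCm38.p6, written 5′ to 3′ on the strand of the gene. Zrsr1 (chr11:22971755-22972004, plus strand) had 8 CpG in 250 bases. Commd1 (chr11:22982383-22982534, minus strand) had 5 in 152 bases. Mcts2 (chr2:152686898-152687034, plus strand) had 12 in 137 bases, and H13 (chr2:152669211-152669421, plus strand) had 12 in 211 bases.
Zrsr1: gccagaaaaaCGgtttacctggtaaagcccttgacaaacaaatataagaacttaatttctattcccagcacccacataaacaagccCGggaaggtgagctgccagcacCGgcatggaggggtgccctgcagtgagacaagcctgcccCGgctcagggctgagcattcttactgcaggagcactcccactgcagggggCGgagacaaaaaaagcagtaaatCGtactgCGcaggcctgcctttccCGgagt
Commd1: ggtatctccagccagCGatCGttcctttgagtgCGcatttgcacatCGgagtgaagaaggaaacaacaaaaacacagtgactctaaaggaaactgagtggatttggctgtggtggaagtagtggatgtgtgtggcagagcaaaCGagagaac
Mcts2: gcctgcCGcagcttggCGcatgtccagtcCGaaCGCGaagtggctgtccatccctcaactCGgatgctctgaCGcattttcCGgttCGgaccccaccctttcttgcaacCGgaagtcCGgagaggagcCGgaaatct
H13: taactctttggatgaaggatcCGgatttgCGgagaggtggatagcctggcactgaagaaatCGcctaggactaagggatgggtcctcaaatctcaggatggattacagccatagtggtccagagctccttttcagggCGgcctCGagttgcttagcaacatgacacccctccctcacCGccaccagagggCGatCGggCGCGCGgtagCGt

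Full promoter windows, from 250 bases before to 50 after a start site, were used for 7 of the 9 genes, with 11 windows in all. Their CpG counts ran from 10 in Zrsr1 to 40 in 1 of the 4 Gnas windows, against a median of 7 over all 32851 windows. The hexamer TGCCGC, whose methylated form ZFP57 binds, was the only motif searched, on both strands. It was found in 3 of the 11 windows, those of Mcts2, Plagl1 and the more upstream of both Commd1 windows, and in 11.6% of all windows. A match is a description of these letters and no evidence of binding.

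The total was between 20228071 and 24198943 counts per library, and all 9 imprinted genes were among the 12542 with enough counts for the test. Levels are given in CPM, the counts of a gene relative to the size of its library, with libraries scaled by TMM. Dnmt1 itself was at 86.6 and 67.0 CPM in Dnmt1fl/fl and at 37.0 and 42.7 CPM in Dnmt1KO replicates 1 and 2, a log2 fold change of -0.95 (standard error 0.24, edgeR adjusted p = 1.00). Dnmt1KO replicate 1 stood apart from the other libraries, being the highest or the lowest of the 4 in 78.3% of all genes tested. Its 7 listed neutrophil markers of 9 summed to 841 CPM against 207 to 313 in the others, its 6 B cell markers of 6 to 129.6 against 318 to 525, and its 9 mesothelial and fibroblast markers of 9 to 115 against 26.5 to 57.8. The sum of the 9 macrophage markers of 9, led by Lyz2, the gene whose promoter drives the Cre, was 35999 and 34981 CPM in Dnmt1fl/fl and 18435 and 21886 CPM in Dnmt1KO. Of these markers, 1 was lower in both Dnmt1KO libraries, as were 8.55% of all genes tested, and 8 had overlapping genotypes. Their median log2 fold change was -0.025, with 4 above 0 and 5 below 0, so most of these markers did not share the drop of the sum. In Dnmt1KO replicate 1, genes with transcripts of 1380 bases were 0.22 above their mean log2 CPM on a fitted trend. Genes with transcripts of 6723 bases were 0.31 below theirs, while the other libraries stayed between -0.13 and 0.17 at these lengths. The part of these differences in the results below was not tested, beyond a correction for transcript length.

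The imprinted genes covered a wide range of levels. Per kilobase of exon, the mean over 4 libraries was 43.6 CPM for Gnas and 33.6 CPM for Igf2r. H13 had 12.7 CPM per kilobase, Impact 8.86, Commd1 7.37, Trappc9 3.21, Zrsr1 2.88, Mcts2 0.602 and Plagl1 0.0903. Impact and Commd1 overlapped in their ranges over the libraries, as did Trappc9 and Zrsr1, and no other neighbours in this order did.

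**Figure D1:**
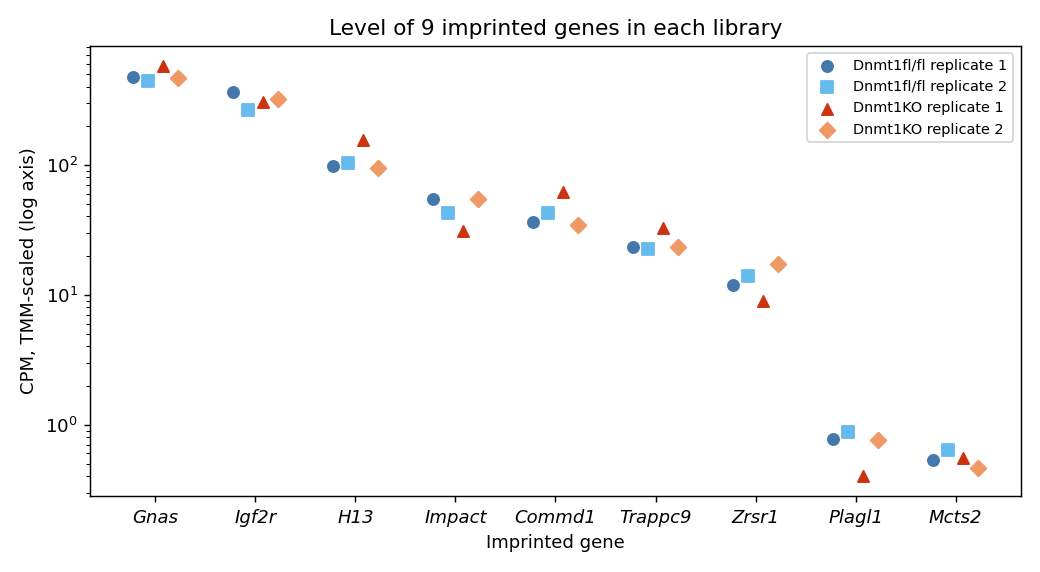
Level of the 9 imprinted genes (CPM scaled with TMM, log axis) in each of the 4 libraries, 1 point per library. Gnas and Igf2r lie highest, between 264 and 572 CPM, and Mcts2 and Plagl1 lie below 1 CPM in all libraries.

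None of the 9 genes differed between genotypes by the test. In the comparison of Dnmt1KO with Dnmt1fl/fl, edgeR's quasi-likelihood test with Benjamini-Hochberg adjustment called 0 of 9 at 0.05 and 0 of all 12542 genes (0.0%). Before adjustment, 0 of 9 and 35 of all genes (0.279%) were under that threshold. DESeq2 and limma-voom called 0 of the 9 as well. The log2 fold changes ran from -0.49 in Plagl1 to 0.32 in H13 with a median of 0.023, against a median of 0.0046 over all genes tested. Both genotypes were separate, with no overlap, in 2 of the 9 genes (22.2%) and in 16.7% of all genes tested. The 95% intervals were wide, from -0.42 to 0.77 for Gnas, the narrowest, to -2.01 to 1.02 for Plagl1.

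**Figure D2:**
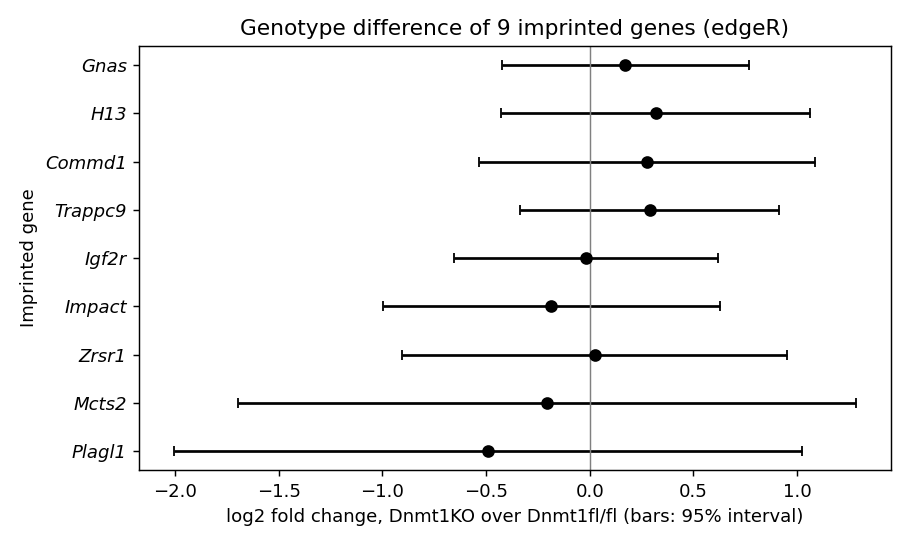
Log2 fold change of Dnmt1KO over Dnmt1fl/fl for each of the 9 imprinted genes from edgeR (points), with 95% intervals (bars), n = 2 libraries per genotype. All intervals include 0, and the widest belong to Mcts2 and Plagl1.

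Gnas, which encodes the alpha subunit of the stimulatory G protein that couples receptors to cyclic AMP, was the highest of the 9. It was measured at 475 and 443 CPM in Dnmt1fl/fl replicates 1 and 2 and at 572 and 462 CPM in Dnmt1KO replicates 1 and 2. Only Dnmt1KO replicate 1 was above both control libraries, and the genotypes overlapped. The mean was 459 ± 22.4 CPM (SD, n = 2) in Dnmt1fl/fl and 517 ± 77.3 CPM (SD, n = 2) in Dnmt1KO, a log2 fold change of 0.17 (95% interval -0.42 to 0.77, edgeR adjusted p = 1.00). Without Dnmt1KO replicate 1 the log2 fold change of Gnas was 0.0069.

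H13 encodes signal peptide peptidase, a membrane protease that clears signal peptides in the endoplasmic reticulum. Its level was 98.1 and 102 CPM in Dnmt1fl/fl replicates 1 and 2 and 156 and 94.2 CPM in Dnmt1KO replicates 1 and 2. The Dnmt1KO libraries lay on opposite sides of both controls. Its log2 fold change was 0.32 (95% interval -0.43 to 1.06, edgeR adjusted p = 1.00), and it was -0.091 without Dnmt1KO replicate 1.

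Commd1, a regulator of copper handling and of NF-kB that acts in endosomal sorting, followed the same order. It stood at 36.4 and 42.7 CPM in Dnmt1fl/fl and at 61.7 and 34.2 CPM in Dnmt1KO replicates 1 and 2. Here too the Dnmt1KO libraries were the highest and the lowest of the 4. The log2 fold change of 0.28 (95% interval -0.53 to 1.09, edgeR adjusted p = 1.00) turned to -0.21 without Dnmt1KO replicate 1.

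Trappc9 encodes a subunit of a TRAPP tethering complex in membrane traffic. Dnmt1fl/fl replicates 1 and 2 had 23.2 and 22.6 CPM, and Dnmt1KO replicates 1 and 2 had 32.8 and 23.2 CPM. Both Dnmt1KO libraries were above both controls, replicate 2 by under 0.1 CPM. In all genes tested, 8.16% had both Dnmt1KO libraries above both controls. Trappc9 had a log2 fold change of 0.29 (95% interval -0.34 to 0.92, edgeR adjusted p = 1.00), and of 0.016 without Dnmt1KO replicate 1.

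Igf2r, the mannose 6-phosphate receptor that sorts enzymes to lysosomes and removes insulin-like growth factor 2, did not follow this order before a correction for transcript length. Its values were 366 and 264 CPM in Dnmt1fl/fl and 303 and 319 CPM in Dnmt1KO replicates 1 and 2. Both Dnmt1KO libraries lay between the controls, so that the controls differed more from each other than the Dnmt1KO libraries did. The log2 fold change was -0.018 (95% interval -0.66 to 0.62, edgeR adjusted p = 1.00). With a correction for transcript length it was 0.19, and with the replicate number as a block it was 0.00065.

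Impact and Zrsr1, given above as transcribed from the paternal copy, had the reverse order in the Dnmt1KO libraries, with replicate 1 below replicate 2. Impact (chromosome 18, 12955852 to 12992950), which restrains the amino acid sensor GCN2, had 54.1 and 42.6 CPM in Dnmt1fl/fl and 30.8 and 54.2 CPM in Dnmt1KO replicates 1 and 2. Dnmt1KO replicate 1 was the lowest library, and replicate 2 was level with the higher control. The log2 fold change was -0.19 (95% interval -0.998 to 0.63, edgeR adjusted p = 1.00), and 0.16 without Dnmt1KO replicate 1.

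Zrsr1 encodes a protein related to the splicing factor U2AF and arose as a copy of the X-linked gene Zrsr2. It was at 11.8 and 13.9 CPM in Dnmt1fl/fl and at 8.99 and 17.1 CPM in Dnmt1KO replicates 1 and 2, so that the Dnmt1KO libraries were the lowest and the highest. The genotype means were close, at 12.8 ± 1.496 CPM (SD, n = 2) in Dnmt1fl/fl and 13.05 ± 5.74 CPM (SD, n = 2) in Dnmt1KO. Its log2 fold change of 0.023 (95% interval -0.91 to 0.95, edgeR adjusted p = 1.00) turned to -0.043 when replicate number was a block and to -0.033 in limma-voom. It was 0.41 without Dnmt1KO replicate 1 and -0.52 without Dnmt1KO replicate 2. No 100-base stretch of Zrsr1 occurs in a transcript of another gene. Its parent Zrsr2 was at 34.2 and 34.0 CPM in Dnmt1fl/fl and 29.5 and 36.4 CPM in Dnmt1KO.

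Mcts2, an intronless copy of Mcts1, whose product acts in translation, gave few counts. There were 11 and 16 counts in Dnmt1fl/fl and 11 and 11 counts in Dnmt1KO, or 0.536, 0.638, 0.555 and 0.466 CPM. The exact Poisson 95% intervals of the single libraries, which cover counting error only, ran from 0.233 to 1.04 CPM and overlapped throughout. The parent gene Mcts1 was level, between 34.0 and 35.6 CPM in the 4 libraries, and shares no 100-base stretch with Mcts2. The log2 fold change of -0.21 had a 95% interval of -1.70 to 1.29 (edgeR adjusted p = 1.00), and no difference was detectable with these counts and this spread.

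Plagl1, a zinc-finger transcription factor that restrains growth, was the other gene near the limit of detection. Its counts were 16 and 22 in Dnmt1fl/fl and 8 and 18 in Dnmt1KO, or 0.780, 0.877, 0.404 and 0.763 CPM. Both Dnmt1KO libraries were below both controls in CPM, as in 8.55% of all genes tested, but not in counts, and the counting interval of Dnmt1KO replicate 2 (0.452 to 1.21 CPM) contained both controls. The log2 fold change was -0.49 (95% interval -2.01 to 1.02, edgeR adjusted p = 1.00), and -0.12 without Dnmt1KO replicate 1. Its relatives Plagl2 (36.2 to 43.9 CPM) and Plag1 (0.757 to 1.48 CPM) had overlapping genotypes.

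Most of the 9 genes, like most genes tested, differed more between the Dnmt1KO libraries than between the Dnmt1fl/fl libraries. The median absolute difference between the Dnmt1KO libraries was 0.72 on the log2 scale, against 0.23 between the Dnmt1fl/fl libraries. Over all genes tested these medians were 0.48 and 0.21. On this scale the Dnmt1KO pair was the wider one in 8 of the 9 genes, all but Igf2r, and in Mcts2 by under 0.01. It was the wider one in 75.0% of all genes and in 72.7% of the 33 further imprinted genes. Dnmt1KO replicate 1 was the highest library for Gnas, H13, Commd1 and Trappc9. These are 4 of the 5 genes transcribed from or biased to the maternal copy in some tissues. It was the lowest for Impact, Zrsr1 and Plagl1, 3 of the 4 measured genes given above as transcribed from the paternal copy. Over all genes tested it was highest in 38.8% and lowest in 39.5%. Which copy was transcribed in these macrophages was not measured. Of the 33 further imprinted genes described below, which were not divided by parental copy, this library was the highest for 10 and the lowest for 15. It was the highest or the lowest in 77.8% of the 9 genes, in 75.8% of these 33 and in 78.3% of all genes tested. Against the mean of the other 3 libraries it was 0.31 to 0.71 higher on the log2 scale in Gnas, H13, Commd1 and Trappc9. The differences were -0.70 for Impact, -0.65 for Zrsr1 and -0.99 for Plagl1. After the correction for transcript length these 7 differences kept their sign, at 0.47 for Gnas, 0.96 for H13, 0.94 for Commd1, 0.74 for Trappc9, -0.57 for Impact, -0.43 for Zrsr1 and -0.69 for Plagl1. The remaining 2 genes changed sign with this correction, Igf2r from -0.052 to 0.49 and Mcts2 from 0.035 to -0.38. The order of Dnmt1KO replicate 1 was noticed in 1 library and was not tested. Against the Dnmt1fl/fl mean, Dnmt1KO replicate 2, which has the same genotype, had values of -0.20 to 0.020 for Gnas, H13, Commd1 and Trappc9. It had 0.17, 0.42 and -0.12 for Impact, Zrsr1 and Plagl1.

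**Figure D3:**
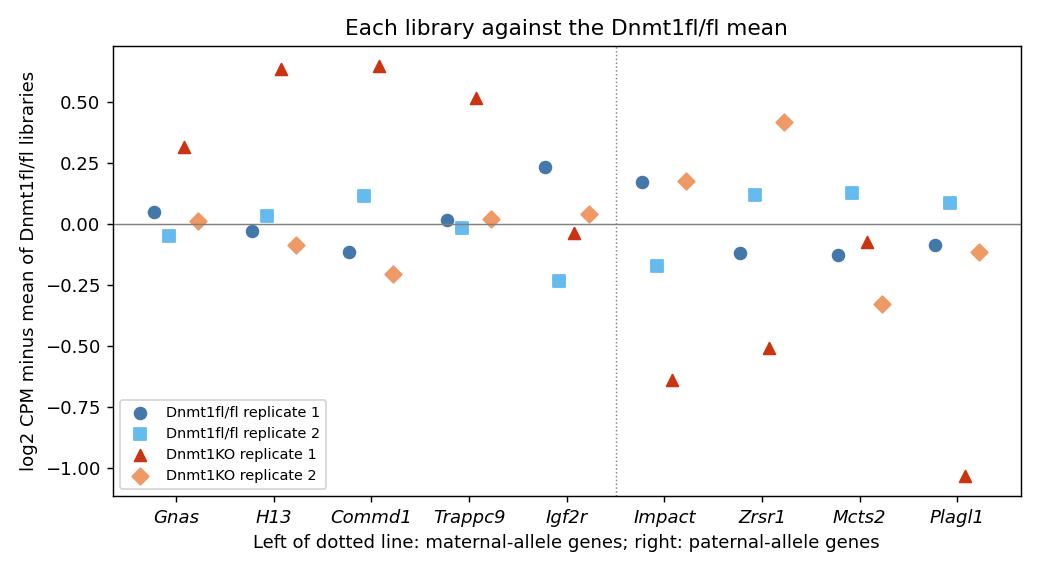
Log2 CPM of each library minus the mean of both Dnmt1fl/fl libraries for the 9 imprinted genes. Genes transcribed from or biased to the maternal copy in some tissues are left of the dotted line. Genes given as transcribed from the paternal copy are right of it. Which copy was transcribed in these macrophages was not measured. Dnmt1KO replicate 1 (triangles) is the top point for Gnas, H13, Commd1 and Trappc9 and the bottom point for Impact, Zrsr1 and Plagl1, while Dnmt1KO replicate 2 (diamonds) is not.

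A ratio of counts within a library does not depend on the scaling between libraries, so each nested gene was set against its host. Zrsr1 had 32.4% and 32.6% of the counts of Commd1 in Dnmt1fl/fl replicates 1 and 2, and 14.6% and 50.03% in Dnmt1KO replicates 1 and 2. The controls were close to each other, and the Dnmt1KO libraries departed from them on opposite sides. The mean log2 ratio differed by -0.27 between genotypes (exact two-sided permutation test, p = 1.00), and by 0.62 in the other direction without Dnmt1KO replicate 1. The exon of Zrsr1 shares 412 of its 4492 bases (9.17%) with exons of Commd1 on the other strand, and no source gives the strand setting of the counting, so reads in those bases cannot be told apart. The value of Zrsr1 was not a whole number in 2 of the 4 libraries, and that of Commd1 was not whole in any of the 4. In Commd1, 3.31% of the 100-base stretches also occur in transcripts of Gm28048.

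Mcts2 had 0.546% and 0.624% of the counts of H13 in Dnmt1fl/fl and 0.357% and 0.495% in Dnmt1KO replicates 1 and 2. Both Dnmt1KO libraries were lower, by -0.47 on the log2 scale in the mean (exact two-sided permutation test, p = 0.333, the smallest that 2 against 2 samples allow, and 0.667 adjusted over the 2 pairs tested). The difference was -0.24 without Dnmt1KO replicate 1 and -0.71 without Dnmt1KO replicate 2. The ratio was not corrected for transcript length. With that correction the log2 fold changes of the single genes were -0.34 for Mcts2 and 0.48 for H13. The exons of these genes do not overlap, but reads from unspliced H13 RNA across Mcts2 cannot be told apart from Mcts2 reads.

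The noncoding partners of Trappc9 and Igf2r, which are transcribed from the paternal copy, were added after their values were seen and were not tested. Peg13 was at 35.9 and 25.1 CPM in Dnmt1fl/fl and at 22.4 and 36.9 CPM in Dnmt1KO replicates 1 and 2. As a share of Trappc9 it had 155% and 111% in Dnmt1fl/fl and 68.2% and 159% in Dnmt1KO. Peg13 lies within Trappc9 on the same strand and shares no exon bases with it. Reads from unspliced Trappc9 RNA across Peg13 cannot be told apart from Peg13 reads. Airn, which silences Igf2r on the paternal copy in most tissues, had 82 and 75 counts in Dnmt1fl/fl and 51 and 81 in Dnmt1KO, or 1.09%, 1.13%, 0.851% and 1.07% of the counts of Igf2r. In all 4 pairs Dnmt1KO replicate 1 had the lowest share of the 4 libraries, and Dnmt1KO replicate 2 was above both controls for Zrsr1 and Peg13 and below both for Mcts2 and Airn. These shares are made from the same counts as the levels above, so they are not a separate observation of the order in Dnmt1KO replicate 1.

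**Figure D4:**
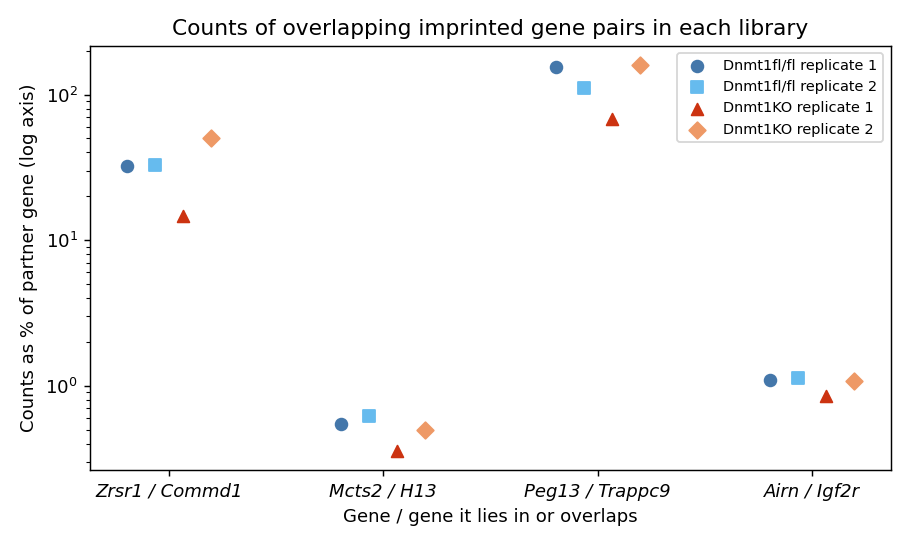
Counts of Zrsr1, Mcts2, Peg13 and Airn as a percentage of the counts of the gene they lie in or overlap (log axis), 1 point per library. Dnmt1KO replicate 1 has the lowest share in each pair, at 14.6% for Zrsr1 and 68.2% for Peg13, and both Dnmt1fl/fl libraries are close together for Zrsr1, at 32.4% and 32.6%.

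A list of 73 further imprinted mouse genes gave 44 listed rows, of which 33 passed the filter. By edgeR, 0 of the 33 passed the threshold of 0.05 with adjustment, and 0 passed it without. Fold changes were above 0 in 16 and below 0 in 17, with a median of -0.00044 on the log2 scale. The genotypes did not overlap in 6 of the 33 (18.2%, against 16.7% of all genes), with Pon2, Pon3 and Gatm higher and Tspan32, Kcnq1 and Pde10a lower in both Dnmt1KO libraries. Pon2, a paraoxonase of the endoplasmic reticulum and mitochondria, was the highest of the list, at 164 and 175 CPM in Dnmt1fl/fl and 244 and 177 CPM in Dnmt1KO replicates 1 and 2 (log2 fold change 0.31, edgeR adjusted p = 1.00). Pon3, from the same cluster, had 37.7 and 40.4 CPM in Dnmt1fl/fl and 41.0 and 42.5 CPM in Dnmt1KO. Of the 10 highest, Ago2, the slicing Argonaute whose gene is close to Trappc9, had 171 and 97.4 CPM in Dnmt1fl/fl and 101 and 177 CPM in Dnmt1KO. Ube3a, a ubiquitin ligase imprinted in neurons, had 94.6 and 87.3 CPM in Dnmt1fl/fl and 65.99 and 92.8 CPM in Dnmt1KO. Nap1l4, Inpp5f, Qpct, Copg2, Gab1 and Chrac1 had overlapping genotypes and log2 fold changes between -0.016 and 0.30.

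**Figure D5:**
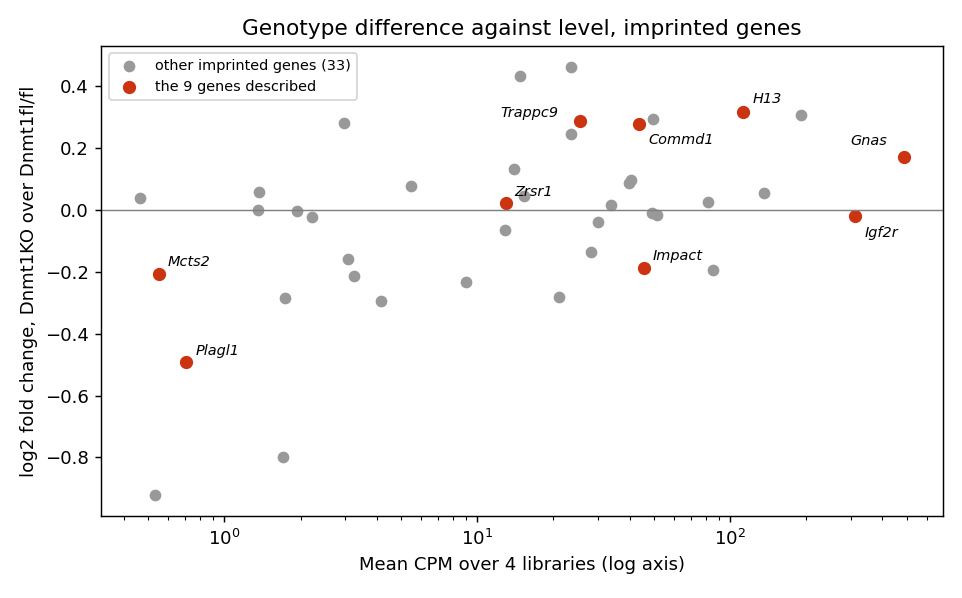
Log2 fold change of Dnmt1KO over Dnmt1fl/fl from edgeR against the mean CPM of the 4 libraries (log axis), with 33 other imprinted genes in grey and the 9 genes described in red. Both sets lie on both sides of 0, and the lowest values, down to -0.92, are at low levels.

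Of the relatives of these genes not yet given, Snrpb, the ubiquitous counterpart of the unlisted Snrpn, had 98.1 and 115 CPM in Dnmt1fl/fl and 166 and 78.9 CPM in Dnmt1KO replicates 1 and 2. Gnaq and Gnal, which encode other G protein alpha subunits, had overlapping genotypes and log2 fold changes of -0.11 and -0.009.

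The genes on each side of the imprinted loci were examined as well. The nearest tested protein-coding genes on each side of the 9 gave 14 distinct neighbours, since nested pairs share theirs. Their distances ran from 8137 bases, for Cct4 beside Commd1, to 4330764 bases, for Zfat beside Trappc9, and Ss18 was 1631248 bases from Impact. Chrac1, the other neighbour of Trappc9, is also one of the further imprinted genes. By edgeR, 0 of the 14 passed 0.05 before adjustment (0.279% of all genes) or after it, and 1 (7.14%, against 16.7% of all genes), Rem1, had separate genotypes, with 2.48 and 1.87 CPM in Dnmt1fl/fl and 1.51 and 1.74 CPM in Dnmt1KO. Their log2 fold changes ran from -0.42 in Rem1 to 0.40 in Id1, with 7 above and 7 below 0. Between these lay Npepl1 and Nelfcd beside Gnas, Osbpl1a and Ss18 beside Impact, Map3k4 and Mrpl18 beside Igf2r, B3gnt2 and Cct4 beside Commd1, Zfat and Chrac1 beside Trappc9, and Sf3b5 and Ltv1 beside Plagl1. Cct4 had 168 and 169.7 CPM in Dnmt1fl/fl and 196 and 168 CPM in Dnmt1KO.

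Of 8 factors that maintain imprints, 7 were listed and Zfp57 was not. Of the 7, Dnmt1 alone was under 0.05 in edgeR's test before adjustment (0.279% of all genes), and none was after it. The genotypes did not overlap in 2 of the 7 (28.6%, against 16.7% of all genes), namely Dnmt1, the gene deleted by design, and Ctcf, where they were apart by under 1 CPM. Uhrf1, which brings DNMT1 to newly copied DNA, was at 3.95 and 7.34 CPM in Dnmt1fl/fl and at 9.44 and 3.60 CPM in Dnmt1KO replicates 1 and 2. Zfp445 had 94.95 and 79.9 CPM in Dnmt1fl/fl and 38.1 and 94.2 CPM in Dnmt1KO, so that Dnmt1KO replicate 1 alone was below the others. Trim28, the corepressor of both zinc-finger proteins, had 84.6 and 88.2 CPM in Dnmt1fl/fl and 119 and 84.5 CPM in Dnmt1KO. Setdb1, Dppa3 and Ctcf had log2 fold changes of -0.028, 0.17 and -0.21, and Ctcf had 65.9 and 72.2 CPM in Dnmt1fl/fl and 54.1 and 65.1 CPM in Dnmt1KO.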

How the data were processed

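Per the labels and the study's methods, the authors aligned paired-end reads with HISAT2 2.0.5 to mm10 and counted them per gene with featureCounts 1.5.0-p3. They deposited estimated counts per gene without normalization, of which 72.6% to 76.4% per library were whole numbers. The annotation and the sharing of reads between genes are not given in the sources used here. A shorter table chosen by fold change was not used.

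Here counts were rounded, filtered with filterByExpr, scaled with TMM and tested with edgeR 4.0.16 (R 4.3.3; quasi-likelihood test, two-sided, Benjamini-Hochberg adjustment over 12542 genes), and the script was tested on simulated data. Exact permutation tests used SciPy 1.17.1. Fold changes and gene counts were recomputed with voom in limma 3.58.1, DESeq2 1.42.0, stricter or no count filter, a replicate block, leaving out each library, and a loess correction (span 0.5) for the longest GENCODE M21 transcript. Ratios of nested to host genes were recomputed with 0.5 counts added and leaving out each library. The floor of 3 counts was 0.120 to 0.151 CPM and covers counting error only.

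The genes and lists were chosen with earlier results of these data known. All imprinted genes of the first list that the table holds were named, and of the further imprinted genes those sharing a locus with them, the 10 highest and any with an unadjusted p under 0.05, with all listed maintenance factors, paralogs and nearest neighbours. Gatm, Tspan32, Kcnq1, Pde10a, Dcn, Grb10, Meg3, Mest, Nnat and Ndn were named outside this rule.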

Additional observations from a re-analysis of the deposited data

How the results depend on the processing

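With another filter, test, block or length correction on all 4 libraries, the 9 imprinted genes kept their direction in 49 of 53 refits, and none had an adjusted p under 0.05 (lowest 1.00). The exceptions were Igf2r, at 0.00065 with the replicate block and 0.19 with the length correction against -0.018, and Zrsr1, at -0.043 with the replicate block and at -0.033 in limma-voom against 0.023. Plagl1 had no value with at least 10 counts required in every library. Leaving out 1 library at a time, with the lone library of a genotype assumed to vary like the other genotype, the log2 fold changes ran from -0.091 to 0.64 for H13, from -0.21 to 0.64 for Commd1, from -0.65 to 0.16 for Impact, from -0.23 to 0.24 for Igf2r and from -0.52 to 0.41 for Zrsr1, the log2 ratio of Zrsr1 to Commd1 from -1.16 to 0.62 and that of Mcts2 to H13 from -0.71 to -0.24. Gnas (0.0069 to 0.32), Trappc9 (0.016 to 0.52), Mcts2 (-0.34 to -0.066) and Plagl1 (-1.03 to -0.12) kept their sign.

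The number of all genes with an adjusted p under 0.05 was 0 with edgeR, 0 with the replicate block, 0 with limma-voom, 1 with DESeq2, and between 0 and 674 with 1 library left out, the highest without Dnmt1KO replicate 2 and 0 without Dnmt1KO replicate 1. Same-numbered libraries deviated in opposite directions (correlation -0.35 across genes), so that replicate numbers were not taken as pairs, and the crossed pairing, chosen after seeing this, called 3 genes. Of the further imprinted genes, between 0 and 8 had an unadjusted p under 0.05 with 1 library left out (8 of 33 without Dnmt1KO replicate 2, where 27.3% of all genes did, and 2 without Dnmt1KO replicate 1, where 2.68% did). The causes were not tested. Mcts2 and Plagl1 rested on 8 to 22 counts per library.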

Other observations

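Among the further imprinted genes, decorin (Dcn), a matrix proteoglycan imprinted in placenta, had 10.4 and 14.7 CPM in Dnmt1fl/fl and 26.2 and 7.80 CPM in Dnmt1KO replicates 1 and 2, in the same order as the summed mesothelial and fibroblast markers (40.2, 57.8, 115 and 26.5 CPM). Grb10, a receptor adaptor, had 1.02 and 1.63 CPM in Dnmt1fl/fl and 2.42 and 0.381 CPM in Dnmt1KO, again in that order. The order was not particular to these genes, as H13 and Commd1, but no others of the 9, had it, and so did Snrpb and Uhrf1. The part of other cells in these values was not tested. Dcn and Grb10 were picked after their values were seen. Meg3, Mest, Nnat and Ndn were listed, each below 1 CPM in all 4 libraries, and did not pass the filter.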
